A study of Mus musculus with 12 samples.

Results

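The clusters described here are the very wide poly(A) sites of a catalogue of transcript 3′ ends in mouse embryonic stem cells. A cluster was included where its end minus its start was above 100 nt, with the mitochondrial chromosome left out. This gave 1436 of 145099 clusters, or 0.990%, in a table of 145179 clusters in all. The rule used the width, so widths are given as a description and support nothing else.

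The cells were clones derived from the V6.5 mouse embryonic stem cell line, all with genotype Exosc3 CKO, maintained in doxycycline at 0.1 μg/ml. In this line doxycycline keeps Exosc3 expressed and its withdrawal removes it, which the table used here cannot check. How many clones were used is not given in the labels. The 12 libraries formed 6 groups of 2. In the AMO groups the cells spent 2 days with or without doxycycline, and the RNA was taken 8 hours after nucleofection with 15 μM of U1 AMO, an antisense morpholino against the U1 small nuclear RNA, or of Scr AMO. Besides its role in splicing, U1 protects transcripts from early cleavage. The groups without doxycycline were U1 AMO, Scr AMO and 3 days with no AMO, and the groups with doxycycline were the same 3. The 3′ ends were read by 2P-seq, in which poly(A)-selected RNA is trimmed with RNase T1 and sequenced from the tail inwards. Of the 7 columns of the table, 0 held a value of a library, so depth is unknown, the groups were not compared, and a width is that of the whole catalogue.

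A poly(A) site forms where the nascent transcript is cut and a tail is added to the new end. The cleavage and polyadenylation machinery recognises a hexamer a short way upstream of the cut, and around a strong signal the cut falls on a few neighbouring nucleotides. RNA ends can also receive tails outside this process, for example when the nucleus marks RNA for decay by the exosome, the complex of which Exosc3 is a core subunit, and reverse transcription can start inside A-rich stretches of a transcript. The catalogue does not tell these kinds of ends apart, and their part in the results below was not tested.

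Because signals are the main property on which the very wide clusters were compared, the hexamers most often listed for them are shown first, in the DNA letters of the table. The canonical signal AATAAA was listed for 366 very wide clusters. The most common variant, ATTAAA, was listed for 127 of them and the next variant, TATAAA, for 50. The most common A-rich hexamer was AAGAAA, listed for 44, and a further variant of the canonical signal, AGTAAA, was listed for 37. The largest class, 490 clusters, had no hexamer.

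Most members of the set were only moderately wide, and a few were far wider than the rest. The median was 131 nt, with quartiles of 113 and 167 nt, and the 95th percentile was 302 nt, while the median of all other clusters was 10 nt. Widths of 101 to 150 nt were held by 952 clusters, widths of 151 to 200 nt by 256, widths of 201 to 300 nt by 155 and widths of 301 to 500 nt by 59. Only 8 clusters lay between 501 and 1000 nt and 6 above that. Together the very wide clusters covered 233115 nt, which was 9.85% of the 2365627 nt covered by all clusters. Fewer clusters lay just above the limit than just below it, with 38, 30 and 31 clusters of 103, 102 and 101 nt, and 45, 49 and 47 clusters of 100, 99 and 98 nt. A hexamer was listed for 70.8% of the 305 clusters of 101 to 110 nt and for 74.9% of the 479 clusters of 91 to 100 nt. The strands were evenly represented, with 726 plus-strand and 710 minus-strand clusters (50.6% plus, 95% Wilson interval 47.97 to 53.1%).

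The 15 widest clusters measured 500 to 3398 nt, lay on 6 chromosomes, and included 10 without a hexamer. All positions are in the mm9 build, with starts counted from 1. The widest, a plus-strand cluster on chromosome 17 from 39979973 to 39983370, had no hexamer and was followed 66 nt downstream by a cluster of 344 nt. Its nearest upstream neighbour lay 800432 nt away. The same strand held the fourth widest, 1360 nt from 39984408 to 39985767, also without a hexamer. Very wide clusters filled 89.8% of the 5795 nt between the outer edges of these clusters, more than in any of the 18 loci with 5 or more such clusters that are described below. The block on chromosome 17 held 4 very wide clusters in all. No annotation of this build was used here, so no gene is named for any position.

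The clusters ranked 2 and 5 by width formed a single block on the minus strand of chromosome 19. The upstream cluster, 1165 nt wide from 5843779 to 5844943, had no hexamer, and 20 nt further downstream followed a cluster of 1851 nt from 5841908 to 5843758 with AATAAA at 25 nt. A cluster of 325 nt with AACAAT ended 11 nt upstream of the first.

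Chromosome 11 held 4 of the 15 widest. The third widest, 1379 nt on the plus strand from 68886965 to 68888343, had no hexamer. A cluster of 964 nt on the minus strand from 115883147 to 115884110 had AATAAA at 17 nt, and 14 nt upstream of it lay a cluster with ATTAAA. The remaining pair were a cluster of 504 nt without a hexamer, from 59121046 to 59121549, and a cluster of 500 nt with ATTAAA at 9 nt, from 83085433 to 83085932. On chromosome 13 a cluster of 1088 nt, on the minus strand from 22131818 to 22132905, had ATTAAA at 19 nt. Of the 15, 13 had another cluster of their strand within 100 nt. The clearest exception was a cluster of 795 nt without a hexamer, a plus-strand site on chromosome 8 from 122753449 to 122754243, whose neighbours were 20135 nt upstream and 11397 nt downstream and whose nearest opposite-strand cluster was 63545.5 nt away between midpoints.

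The 5 widest clusters with AATAAA measured 1851, 964, 942, 485 and 481 nt. Their AATAAA lay at 25, 17, 20, 12 and 26 nt, so 4 of the 5 were in the range of 15 to 30 nt that is used as a window below. All 5 had neighbours of the same strand on both sides.

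Very wide clusters were spread unevenly over the chromosomes, with 9.90 per 1000 clusters in the whole set (Wilson interval 9.40 to 10.4) and 10.1 ± 2.96 per 1000 over autosomes (SD, n = 19). Chromosome 13 had the highest rate, 15.7 per 1000 (interval 12.9 to 19.1), followed by chromosome 19 with 15.3 (12.1 to 19.3), chromosome 11 with 13.98 (12.0 to 16.3) and chromosome 17 with 13.8 (11.3 to 16.9). These 4 had intervals above the overall rate. Chromosome X had the lowest rate, 4.02 per 1000 (interval 2.51 to 6.43), and chromosomes 18, 5, 12 and 2 also had intervals below it. Chromosome 13 exceeded the other assembled chromosomes 1.63-fold (interval 1.33 to 2.00), and 3.08-fold (2.08 to 4.58) when the width limit was set at 200 nt. The value was 1.33-fold (1.15 to 1.55) with the limit at 75 nt and 1.38-fold (1.06 to 1.79) with 1 very wide cluster of each locus. The 221 clusters of unplaced sequences held 3 very wide clusters.

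**Figure D1:**
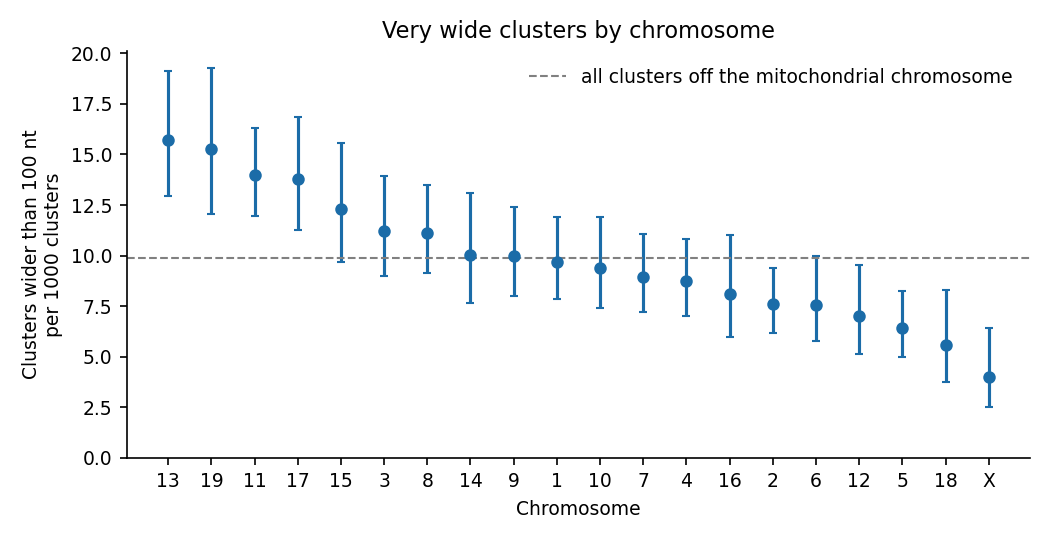
Clusters wider than 100 nt per 1000 clusters (vertical axis) on chromosomes 1 to 19 and X, ordered by rate, with 95% Wilson intervals as bars and the overall rate of 9.90 as a dashed line. Chromosomes 13, 19, 11 and 17 lie above the line with their whole interval, and chromosome X is lowest at 4.02.

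Most of the excess on chromosomes 13 and 19 came from a few windows. The catalogue had clusters in 2603 windows of 1 Mb, of which 629 held a very wide cluster and 14 held 10 or more. Those 14 windows held 217 very wide clusters, 15.1% of the set. The window that starts at 23 Mb on chromosome 13 held 30 (10.7% of its 280 clusters), the one at 5 Mb on chromosome 19 held 29 (9.29% of 312), the one at 96 Mb on chromosome 3 held 19, the one at 78 Mb on chromosome 9 held 18 and the one at 21 Mb on chromosome 13 held 17. Outside such windows, chromosome 13 had 9.01 per 1000 (interval 6.87 to 11.8) and chromosome 19 had 6.30 (4.27 to 9.28). The rate of all clusters outside such windows was 8.62 per 1000 (8.15 to 9.11). The intervals of chromosomes 13 and 19 then included it, while those of chromosome 11, at 12.4 (10.5 to 14.7), and chromosome 17, at 11.4 (9.04 to 14.3), lay above it. Chromosome 15 had no such window, and its interval, at 12.3 (9.69 to 15.6), also lay above it. These 14 windows were chosen by their count, so the values outside them are a description.

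Very wide clusters tended to lie together. Joined at gaps of at most 10 kb on a strand, they formed 1003 loci, of which 765 held 1 cluster and 238 held 2 or more. The larger loci held 671 clusters, so that 46.7% of very wide clusters (interval 44.2 to 49.3%) had another within 10 kb on their strand. Among all other clusters, 6.56% (6.43 to 6.68%) had a very wide cluster within that distance. The difference was 40.2 percentage points (95% Newcombe interval 37.6 to 42.8) and was positive on 19 of 19 autosomes. It was 26.3 points against clusters of 51 to 100 nt. With only the widest cluster taken from each locus it was 17.2 points, but gaps were still measured to all very wide clusters. That value follows from how loci were joined, so it is no check of the grouping. The Wilson and Newcombe intervals treat clusters as independent, which neighbours are not, and cover counting error only.

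The locus with the most very wide clusters, 17, lay on the minus strand of chromosome 19 from 5796197 to 5802596. They covered 50.8% of its 6400 nt and measured 103 to 409 nt. None had AATAAA, 3 had ATTAAA, 6 had no hexamer, and no cluster was listed on the opposite strand there. Elsewhere on that strand, from 5839254 to 5845279, a locus of 7 covered 69.9% of 6026 nt and included the block of 1165 and 1851 nt.

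On the plus strand of chromosome 13, 10 very wide clusters of 104 to 478 nt were scattered over 24932 nt, from 23830993 to 23855924, and covered 7.85% of it. The widest of them had ATTAAA, and AATAAA was listed for 1. The opposite strand of the same stretch held 22 clusters, of which 5 were very wide.

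A locus of 9 on the minus strand of chromosome 17, from 66828060 to 66833026, was filled to 66.2%. Its widest cluster, 942 nt from 66831922 to 66832863, had AATAAA at 20 nt. A cluster of 481 nt with AATAAA at 26 nt followed 31 nt downstream, from 66831410 to 66831890, and one of 717 nt without a hexamer further downstream. In this locus 5 of 9 had no hexamer.

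The other large loci had few canonical signals. On chromosome 9, in a plus-strand locus from 78369590 to 78376213, 8 very wide clusters of 122 to 349 nt included 0 with AATAAA, 2 with ATTAAA and 4 without a hexamer. On the minus strand of chromosome 19, from 23206725 to 23216206, 8 clusters of 132 to 190 nt included 6 without a hexamer and 1 each with AAGAAA and AAAAAA. This last stretch held very wide clusters on both strands, with 6 on the plus strand from 23209651 to 23212606.

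**Figure D2:**
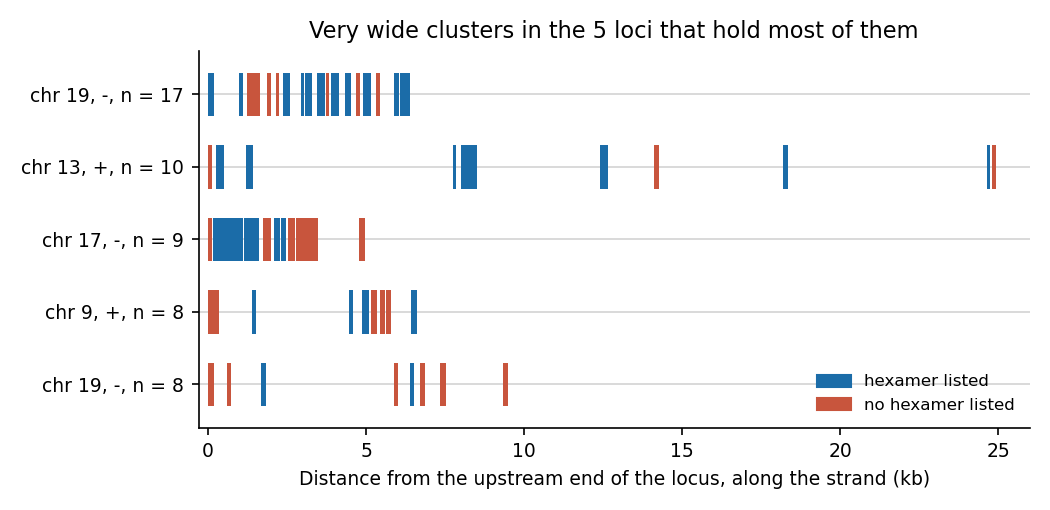
Position of each cluster wider than 100 nt, drawn to scale as distance in kb from the upstream end of its locus, in the 5 loci with the most such clusters, in blue where a hexamer was listed and in red where none was. Most clusters of the locus on chromosome 17 lie side by side, while those on chromosome 13 are spread over 24932 nt.

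Very wide clusters had a listed signal less often than other clusters. A hexamer was listed for 946 of the 1436 very wide clusters, 65.9% (interval 63.4 to 68.3%), against 89.4% (89.3 to 89.6%) of the other 143663. The difference was -23.5 percentage points (interval -26.0 to -21.1), with -22.0 ± 5.99 over autosomes (SD, n = 19) and the same sign on 19 of 19. AATAAA was listed for 25.49% of very wide clusters (23.3 to 27.8%) and 45.1% of the others (44.9 to 45.4%), a difference of -19.7 points (-21.9 to -17.3), again lower on 19 of 19 autosomes. ATTAAA was listed for 8.84% of very wide clusters and 15.5% of the others, lower on 18 of 19. Since most other clusters are narrow, the same shares were set against clusters of 51 to 100 nt, and the difference was -15.0 points for any hexamer (-17.7 to -12.4) and -11.5 points for AATAAA (-14.0 to -8.87).

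Of the 5 classes of hexamer, the canonical signal and its main variant were the ones with a lower share beyond counting error. A-rich hexamers, those with 5 or more A other than AATAAA, were listed for 9.89% of very wide clusters (8.45 to 11.5%) and 8.57% of the others (8.43 to 8.72%), a difference of 1.32 points whose interval included 0 (-0.130 to 2.98). Other hexamers 1 base from AATAAA were listed for 17.9% of very wide clusters and 18.4% of the others (difference -0.473 points, interval -2.38 to 1.60). Hexamers further from AATAAA that were not A-rich were listed for 3.76% of very wide clusters and 1.83% of the others, a difference of 1.93 points (1.06 to 3.05).

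Among clusters that had a hexamer, the mix was therefore shifted. AATAAA made up 38.7% of the hexamers of very wide clusters (35.6 to 41.8%) and 50.5% of those of the others. A-rich hexamers made up 15.0% (12.9 to 17.4%) in very wide clusters and 9.59% in the others. In clusters of 51 to 100 nt the shares were 45.7% for AATAAA and 11.6% for A-rich hexamers. The differences from these were -7.00 points (-10.4 to -3.57) and 3.37 points (1.05 to 5.94). All 36 hexamers of the catalogue occurred in the set. The share of 14 of them was higher with an interval above 0, including 5 of the 14 A-rich ones, and that of 2, AATAAA and ATTAAA, was lower. Of those 14, ATTAAT and the A-rich ATAAAA rest on 1 very wide cluster each. AAAAAA, the hexamer of pure A, made up 1.16% (0.651 to 2.07%) in very wide clusters and 1.17% in the others, with a difference whose interval ran from -0.521 to 0.904 points. AAAGAA made up 1.27% in very wide clusters, from 12 of them, and 0.319% in the others. AACAAT made up 1.37% in very wide clusters, from 13 of them, and 0.344% in the others.

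**Figure D3:**
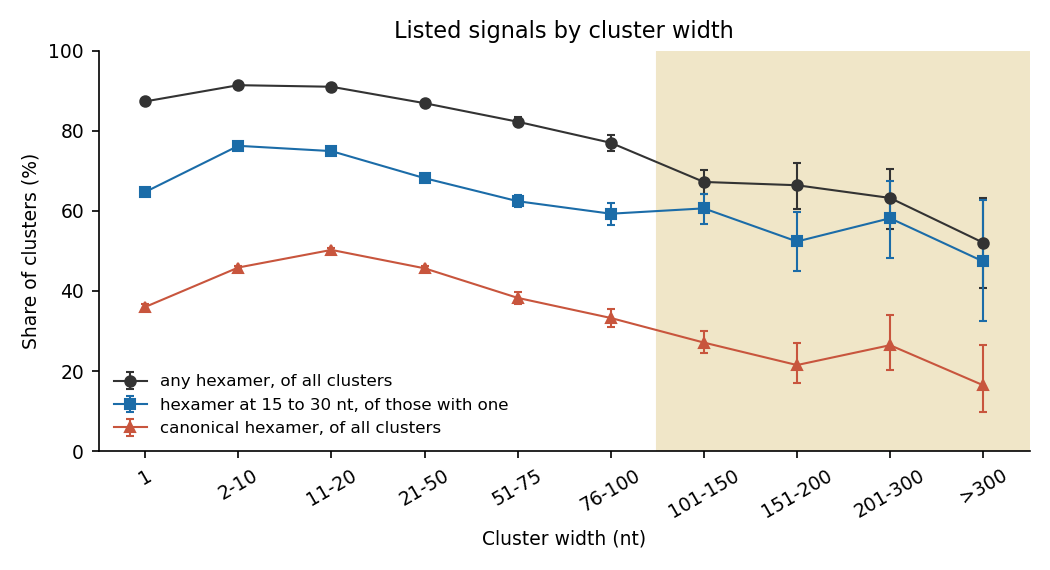
Share of clusters in percent with any hexamer, with the canonical hexamer AATAAA, and, of those with a hexamer, with it at 15 to 30 nt, for 10 classes of cluster width in nt, with 95% Wilson intervals as bars and the classes above 100 nt shaded. Any hexamer is listed for 91.4% of clusters of 2 to 10 nt and for 52.1% of those above 300 nt.

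The share with a hexamer was lower in each wider class from 11 nt upwards. It was 91.01% at 11 to 20 nt, 82.3% at 51 to 75 nt, 77.0% at 76 to 100 nt, 67.2% at 101 to 150 nt (interval 64.2 to 70.1%), 66.4% at 151 to 200 nt (60.4 to 71.9%), 63.2% at 201 to 300 nt (55.4 to 70.4%) and 52.1% above 300 nt (40.8 to 63.1%). Intervals of neighbouring classes above 100 nt overlapped. The median width was 134 nt for very wide clusters without a hexamer, 138.5 nt with an A-rich hexamer, 128 nt with AATAAA and 127 nt with ATTAAA, with quartiles that overlapped between all classes.

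Where a hexamer was listed, its distance was compared by hexamer. The listed distances run from 6 to 100 nt. Which point of a cluster they start from is not given in the sources used here. AATAAA lay at 15 to 30 nt in 81.1% of the very wide clusters that had it (76.8 to 84.8%) and in 79.7% of the others that had it, and the difference of 1.49 points had an interval of -2.84 to 5.18. Against clusters of 51 to 100 nt, with 74.7%, it was 6.48 points (1.82 to 10.6). Its median distance was 21.5 nt in very wide clusters and 21 nt in the others. For all hexamers but AATAAA together, the share at 15 to 30 nt was 43.97% (39.98 to 48.03%) in very wide clusters and 64.9% in the others, a difference of -20.9 points (-24.9 to -16.8), and it was -6.73 points (-11.1 to -2.24) against clusters of 51 to 100 nt. A-rich hexamers had a median distance of 52.5 nt in very wide clusters and 26 nt in the others, and 41.5% of them (33.8 to 49.8%) lay at 61 to 100 nt, against 23.2% in the others. In clusters of 51 to 100 nt the median was 43 nt and the share 33.6%, and the difference of 7.93 points from these had an interval that included 0 (-0.804 to 17.0). Over all hexamers, 58.4% of very wide clusters (55.2 to 61.5%) and 72.3% of the others had theirs at 15 to 30 nt, a difference of -13.98 points (-17.2 to -10.9), or -9.09 points with only the widest cluster of each locus. Against clusters of 51 to 100 nt this difference was -3.30 points, with an interval that included 0 (-6.74 to 0.0937).

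AATAAA at exactly 11 nt was listed for 5 of the 366 very wide clusters with AATAAA, 1.37% (0.585 to 3.16%), against 3.71% of the others. In clusters of 51 to 100 nt it was 1.15%, and the difference of 0.213 points from these had an interval that included 0 (-0.732 to 2.04).

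Most very wide clusters had other sites of their strand close by. Measured between cluster edges, a neighbour lay within 1 kb of 94.2% of very wide clusters (92.9 to 95.3%) and of 57.5% of the others (57.2 to 57.7%), a difference of 36.8 points (35.4 to 37.9) that was positive on 19 of 19 autosomes. Against clusters of 51 to 100 nt it was 7.42 points. A neighbour lay within 100 nt of 64.9% of very wide clusters and 22.8% of the others, and neighbours within 100 nt on both sides were present for 21.7% of very wide clusters and 3.56% of the others. For clusters of 51 to 100 nt these shares were 50.4% and 11.9%. The median gap to the nearest neighbour was 60 nt for very wide clusters, 596 nt for all others and 99 nt for clusters of 51 to 100 nt. How read ends were joined into clusters sets both the width and the gaps, so these cannot be told apart. That rule is not given in the sources used here. Gaps of 25 nt occurred 148 times and gaps of 26 nt 442 times. Of the 1016 gaps of 1 to 25 nt, 13.3% bordered a very wide cluster, against 1.87% of all gaps.

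**Figure D4:**
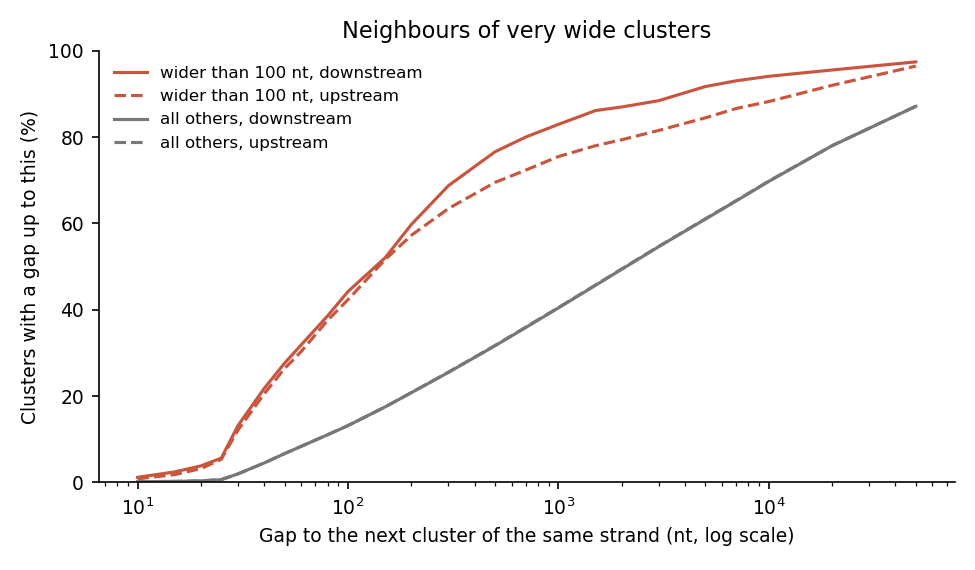
Cumulative share of clusters in percent whose next cluster of the same strand lies within the gap on the horizontal axis (nt, log scale), for clusters wider than 100 nt and all others, downstream and upstream. At 1 kb the very wide clusters reach 82.9% downstream and 75.5% upstream, while both lines of the others lie at 40.4% and 40.5%.

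Downstream neighbours were more common than upstream ones. A downstream neighbour lay within 1 kb of 82.9% of very wide clusters (80.9 to 84.8%) and an upstream one of 75.5% (73.2 to 77.6%), whereas the others had 40.4% and 40.5%. Clusters of 51 to 100 nt had 69.3% and 66.9%, the same direction with a smaller gap. Of the 431 very wide clusters with a neighbour within 1 kb on a single side, 269 had it downstream, 62.4% (57.7 to 66.9%), against 49.9% (49.4 to 50.3%) of the others. With neighbours within 100 nt the share was 52.2% (48.2 to 56.1%), an interval that included an equal split.

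In runs of clusters joined at gaps of up to 2 kb, very wide clusters mostly took inner positions. Of them, 70.3% (67.8 to 72.6%) lay in the middle of a run, 16.7% were the most upstream site, 9.12% (7.74 to 10.7%) the most downstream site and 3.90% (3.02 to 5.03%) lone. For the others these shares were 31.8%, 17.6%, 17.7% and 32.9%. Runs of 10 or more clusters held 41.4% of very wide clusters and 12.0% of the others. The median run had 8 clusters for very wide clusters and 3 for the others. Of clusters of 51 to 100 nt, 58.1% lay in the middle, 18.8% most upstream, 14.4% most downstream and 8.63% alone. Runs of 10 or more held 27.8% of them, and their median run had 6 clusters. Against these clusters, the difference for the middle position was 12.1 points (9.41 to 14.7).

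The lower share with a hexamer was present at each position in a run. It was 66.1% of 56 lone very wide clusters and 94.3% of lone others (difference -28.2 points, interval -41.3 to -17.2), 59.2% of very wide clusters and 85.0% of others at the most upstream position (-25.8, interval -32.2 to -19.8), 66.0% of very wide clusters and 84.8% of others in the middle (-18.8, interval -21.8 to -15.9) and 77.1% of very wide clusters and 93.1% of others at the most downstream position (-16.0, interval -23.9 to -9.65). AATAAA was also lower at all 4 positions, with a difference of -6.77 points in the middle and -20.0 points at lone sites.

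The sites beside very wide clusters were wider than those beside other clusters. Where a very wide cluster lacked a hexamer, its upstream neighbours within 100 nt had a median width of 54 nt, and 25.52% of them were very wide. Of the others without a hexamer, such neighbours had a median of 26 nt, and 7.34% were very wide. A hexamer was listed for 48.4% of the upstream neighbours (41.5 to 55.5%) and 49.6% of the downstream ones (43.3 to 55.9%) of very wide clusters without a hexamer, against 49.7% and 61.7% for the others without a hexamer. Beside very wide clusters with a hexamer these shares were 64.9% and 68.2%, against 87.0% and 91.6% beside the others with a hexamer. AATAAA was listed for 14.5% of the downstream neighbours of very wide clusters with a hexamer and for 37.3% of those of the others with a hexamer. Beside clusters without a hexamer AATAAA was listed for 11.4% of the downstream neighbours of very wide clusters and 14.4% of those of the others, and for 10.9% of the upstream neighbours of very wide clusters and 11.6% of those of the others. The difference was not tested.

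On the opposite strand, overlap was uncommon but more frequent than for other clusters. A cluster of the other strand overlapped 92 very wide clusters, 6.41% (5.25 to 7.79%), against 1.48% (1.42 to 1.54%) of the others, a difference of 4.93 points (3.77 to 6.31) that was positive on 17 of 19 autosomes. Against clusters of 51 to 100 nt it was 2.13 points (0.853 to 3.59), positive on 12 of 19 autosomes and negative on 7. A wider cluster has more room for overlap. By midpoints, which do not depend on width in this way, an opposite cluster lay within 1 kb of 23.3% of very wide clusters (21.2 to 25.6%) and 13.5% of the others, a difference of 9.87 points (7.74 to 12.1). Against clusters of 51 to 100 nt, with 21.6%, this difference was 1.70 points and its interval included 0 (-0.666 to 4.17). The overlap was usually short, with a median of 25 nt per very wide cluster, summed over its opposite clusters (quartiles 8.75 and 48 nt). Paired with the opposite cluster that overlapped it most, the 92 made 87 pairs, of which 57 had a hexamer on both sides, 19 had AATAAA on both sides, and 8 joined 2 very wide clusters.

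The longest overlap was 97 nt, on chromosome 19, between a plus-strand cluster with TATAAA at 25 nt (23209651 to 23209775) and a minus-strand cluster of 147 nt with AAGAAA at 45 nt (23209679 to 23209825). On chromosome 17 a plus-strand cluster of 243 nt (24858866 to 24859108) enclosed a minus-strand cluster of 91 nt (24858953 to 24859043), with AATAAA at 25 and 24 nt. An overlap of 89 nt on chromosome 15 joined a plus-strand cluster of 121 nt with GATAAA (74917315 to 74917435) and a minus-strand cluster of 162 nt with AATAAA (74917242 to 74917403). On chromosome 9 a minus-strand cluster of 186 nt without a hexamer (78374609 to 78374794) overlapped a plus-strand cluster of 237 nt with ATTAAA by 88 nt and a plus-strand cluster of 210 nt without a hexamer by 57 nt. On chromosome 5 an overlap of 75 nt joined a plus-strand cluster of 200 nt with AAGAAA at 85 nt (123590377 to 123590576) and a minus-strand cluster of 75 nt with TAAAAA, listed 86 nt away.

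Further away, the opposite-strand sites of very wide clusters lay mainly to one side. A pair is called divergent where the minus-strand midpoint is to the left of the plus-strand midpoint, so that each site has the other on its upstream side, and convergent in the opposite order. These names describe order only, since transcript starts were not used. At 1 to 3 kb, pairs that included a very wide cluster numbered 1398 divergent and 633 convergent, a ratio of 2.21 (Wilson-based interval 2.01 to 2.43). Pairs without one numbered 19355 and 17869, a ratio of 1.08 (1.06 to 1.11). The intervals of these and the later pair ratios treat pairs as independent. A single cluster can enter many pairs, so the intervals can be too narrow. Pairs with a very wide cluster made up 5.17% of all pairs at 1 to 3 kb and 34.0% of the net excess of divergent over convergent pairs. That excess is a difference in which opposite signs cancel, so the 34.0% is not a stable fraction. By separation it was -130% at 1 to 1.5 kb, where pairs without a very wide cluster were more often convergent, 34.2% at 1.5 to 2 kb and 25.3% at 2 to 3 kb.

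The excess was not limited to a few loci. Of the 730 very wide clusters with a partner at 1 to 3 kb, 482 had more divergent and 212 more convergent partners. Counted by locus, 319 had more divergent and 143 more convergent pairs, a share of 69.0% for the first (64.7 to 73.1%). The 29 loci with equal counts were left out of this share, and no such share is given here for other clusters. Loci were joined on a strand, so loci that face each other can share a pair. On chromosome 19, for example, the minus-strand locus from 23206725 to 23216206 faces the plus-strand locus from 23209651 to 23212606. The interval of the share treats loci as independent, so it can be too narrow. The largest single excess, 50 divergent against 13 convergent pairs, came from the minus-strand locus of 8 on chromosome 19 from 23206725 to 23216206, and a locus of 3 on the minus strand of chromosome 11 from 97520071 to 97520829 had 27 divergent and 0 convergent pairs. The opposite balance was found at a plus-strand locus of 6 on chromosome 9 from 15118366 to 15121373, with 0 divergent and 20 convergent pairs.

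For pairs with a very wide cluster the ratio differed with separation and with the signal. It was 0.773 (0.654 to 0.913) at 0.2 to 1 kb, 1.59 (1.33 to 1.91) at 1 to 1.5 kb, 2.48 (2.06 to 2.97) at 1.5 to 2 kb, 2.47 (2.15 to 2.84) at 2 to 3 kb and 1.66 (1.50 to 1.83) at 3 to 5 kb. For pairs without a very wide cluster it also changed with separation, with 0.706, 0.957, 1.10, 1.14 and 1.03 over the same 5 ranges. At 1 to 3 kb it was 3.21 (2.74 to 3.76) for pairs with a very wide cluster without a hexamer and 1.81 (1.61 to 2.03) for pairs with a very wide cluster that had one. Where both sites were very wide, there were 69 divergent and 7 convergent pairs (9.86, interval 4.61 to 21.1). Pairs whose widest site was 51 to 100 nt gave 1.46 (1.38 to 1.54). The range of 1 to 3 kb was chosen from an earlier profile of all pairs in this catalogue, in which the excess was already visible, so the ratios describe how it was divided and are no independent evidence of it.

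**Figure D5:**
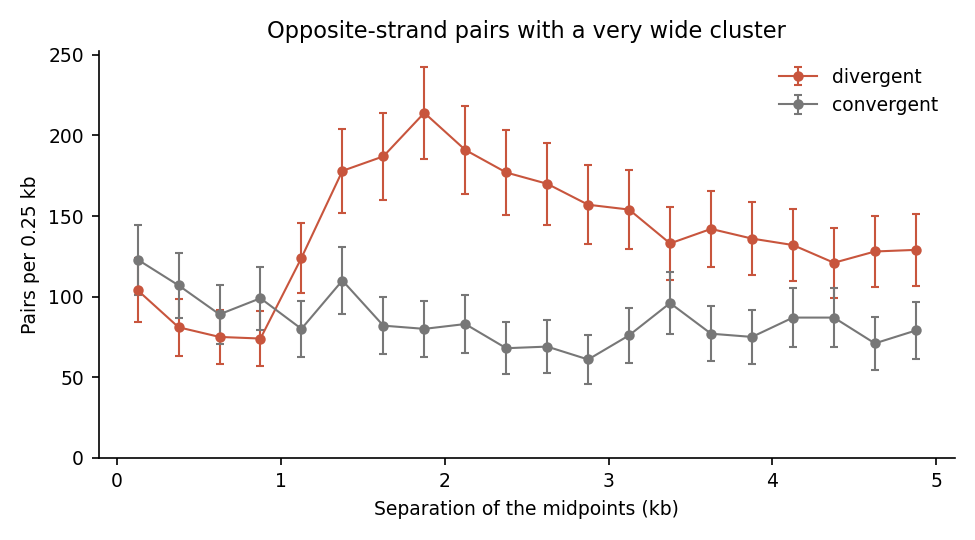
Number of divergent and convergent pairs per 0.25 kb of separation between midpoints, up to 5 kb, for opposite-strand pairs that include a cluster wider than 100 nt, with bars for the normal 95% counting range. Divergent pairs peak with 214 between 1.75 and 2 kb, where 80 pairs are convergent.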

How the data were processed

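One table lists the clusters of the series. It holds positions, hexamers and their distances in nt, deposited by the authors and named per the file headers. The submitters' processing notes name Trimmomatic, STAR, bedtools and the mm9 build, and the rules for clustering, filtering and hexamer search are not given in the sources used here. The table held no column with values of a library, so no library, replicate or group entered a test, and 0 columns of other samples were left aside. Starts were taken as counted from 0. Width is end minus start. The very wide clusters, and the lists and tests, were chosen with earlier results of these data known. Shares carry 95% Wilson intervals and differences Newcombe intervals, with the number of autosomes that share the sign. No p-value was computed. Clusters named individually were the 15 widest, the 5 widest with AATAAA, the 5 loci with most members and the 5 longest opposite-strand overlaps. Other clusters and loci named (the loci on chromosomes 9, 11, 17 and 19 outside these lists, the windows, and single hexamers) were picked after their values were seen. The gap, overlap and interval steps were tested on simulated data. Alternatives were other width limits, the widest cluster of each locus, either strand, other windows and another comparison set. Tables were read with pandas 2.3.3 under Python 3.11.15. Wilson and Newcombe intervals were computed from their formulas in Python. The packages numpy 2.4.6 and scipy 1.17.1 were also used, and figures were drawn with matplotlib 3.10.9. The reference tables at hand are of another assembly and were not used.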

Additional observations from a re-analysis of the deposited data

How the results depend on the processing

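No paired analysis was possible because the table holds no value of a library. Of 91 alternatives of 9 results, 59 planned and 32 added after seeing the data, 52 stayed within the 95% interval of the value reported, 39 moved out of it and 0 changed direction. Below, the differences between very wide and other clusters are in percentage points, in the order hexamer, AATAAA, hexamer at 15 to 30 nt, neighbour within 1 kb, opposite overlap, another very wide cluster within 10 kb, where these moved. With the limit at 75 nt they were -17.8, -15.7, 34.5 (neighbour) and 36.2 (another very wide cluster), at 150 nt -26.0, -22.7, -18.7 and 37.6 (another very wide cluster), and at 200 nt -29.6 (hexamer) and 7.25 (overlap). With only the widest cluster of each locus they were -19.4, -14.9, -9.09, 34.6 and 17.2 (another very wide cluster). That choice uses the width, with which the share with a hexamer also changed. The value of 17.2 follows from how loci were joined and is no check of the grouping. Against clusters of 51 to 100 nt they were -15.0, -11.5, -3.30, 7.42, 2.13 and 26.3. Only the value of -3.30 had an interval that included 0. For neighbours, the difference was 42.1 within 100 nt, 43.8 within 500 nt and 19.7 within 5 kb. For the opposite strand it was 3.00 with 25 nt of overlap and 9.87 for midpoints within 1 kb. Without the 14 windows of 10 or more members, another very wide cluster within 10 kb gave 33.8. The rate of chromosome 13, picked as the highest, over the other chromosomes was 3.08 with the limit at 200 nt. The ratio of divergent to convergent pairs was 1.98, 2.65 and 2.71 with limits of 75, 150 and 200 nt, 1.97 without those windows, 1.78 at 0.5 to 5 kb, 3.21 without a hexamer and 1.81 with one. The share of single-sided neighbours that lay downstream was 68% and 67.2% with limits of 150 and 200 nt, 52.2% within 100 nt and 68.7% within 5 kb. The causes of these shifts were not tested, and depth per library is unknown.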
